A study of Mus musculus with 151 samples.

Results

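The genes described here encode the nuclear subunits of respiratory complexes II, III, IV and V, together with cytochrome c. They were chosen by gene name alone: Sdha to Sdhd, every name that begins with Uqcr or Atp5, every name that begins with Cox followed by a number from 4 to 8, Cyc1 and Cycs, without names ending in -ps. The rule found 50 of 35976 gene names, the same names in each of the 7 count tables: 4 genes of complex II, 10 of complex III, 1 of cytochrome c, 18 of complex IV and 17 of complex V. Of these, Uqcrh-ps1 is named as a pseudogene and shares sequence with Uqcrh, so reads could be split between them, and Atp5s and Atp5sl carry ATP synthase names without being subunits of the enzyme proper. Without these 3 genes, 47 members remained.

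All samples came from female mice with a CF-1 mother and a B6/SJL father, and the question was whether ovaries and germ cells of females conceived by in vitro fertilization (IVF) differed from those of females conceived by mating (Natural). IVF embryos came from eggs of superovulated CF-1 females and capacitated B6/SJL sperm, grew to blastocysts in KSOM medium with amino acids under reduced oxygen, and were transferred to pseudopregnant CF-1 recipients, whereas Natural offspring came from unstimulated matings without transfer, so fertilization, culture, hormone stimulation and transfer cannot be told apart. Adult animals of both groups were delivered by cesarean section and fostered. Whole ovaries were profiled at E18.5 (4 Natural, 6 IVF), 12 weeks (4 Natural, 5 IVF) and 39 weeks (5 Natural, 5 IVF), with animals taken from several litters and, in the adult cohorts, at most 2 littermates from any of them. Primordial germ cells (PGCs) were profiled at E13.5 in libraries of 100 cells (4 Natural, 5 IVF), oocytes singly at 12 weeks (36 Natural, 40 IVF) and 39 weeks (9 Natural, 10 IVF), and cumulus cells, the somatic cells around the ovulated egg, at 12 weeks (5 Natural, 5 IVF). Oocytes and cumulus cells were taken after eCG and hCG, in both groups. The sources used here give more than one collection day for IVF fetuses, so a difference in fetal stage cannot be told apart from IVF at E18.5.

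The respiratory chain passes electrons from nutrients to oxygen in the inner mitochondrial membrane. Complex II (succinate dehydrogenase) feeds electrons in from the citric acid cycle, complex III (ubiquinol-cytochrome c reductase) hands them to cytochrome c, complex IV (cytochrome c oxidase) reduces oxygen, and complex V (ATP synthase) makes ATP from the proton gradient that complexes III and IV help to build. Complex II is encoded wholly in the nucleus, while the other complexes each combine nuclear subunits with a few made from mitochondrial DNA, and several complex IV subunits exist as paralogous isoforms with different tissue preferences. Oocytes hold many mitochondria and depend on oxidative phosphorylation, whereas the surrounding somatic cells supply them with pyruvate.

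Total counts per library ranged from 6995713 to 14830788 at E18.5, from 2839022 to 43363799 in 12-week ovaries, from 18079970 to 38751638 in 39-week ovaries, from 4364495 to 8675189 in PGCs, from 839781 to 10879166 in single 12-week oocytes, from 2820748 to 31126357 in single 39-week oocytes and from 2532824 to 6345249 in cumulus cells. No pair of libraries of the same group and table agreed within sampling noise. Several libraries stood apart before any subunit was examined. In 39-week oocytes, Natural oocytes 6 and 9 carried 2780 and 4830 CPM summed over 14 oocyte markers, against 19100 to 52900 in the other Natural oocytes and 23500 to 45800 in IVF oocytes. In 39-week ovaries, IVF ovary 1 carried 9360 CPM of 8 oviduct epithelium markers against at most 254 in every other library. The cumulus library 126_2_GC is labelled Natural, although the oocyte libraries whose names begin with 126_2 are labelled IVF. The labels do not say what these name fields stand for. Natural 39-week ovary 5 is labelled both 39 and 40 weeks. Levels below are CPM, read counts scaled to library size within each table by the TMM method, differences are log2 fold changes of IVF over Natural with their standard error (SE), and a gene was called where edgeR gave an adjusted p below 0.05 over all genes of that table. The p-values set each group difference against the spread between these samples, which the fits took as independent. The labels used here name no litter, and no litter entered the fits. Between whole ovaries, fewer cells of a type and less RNA per cell cannot be told apart.

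The level of the subunit genes differed widely between tissues. Levels of different genes are compared here per kilobase of transcript (CPM per kb), which 49 of the 50 members allowed. In Natural 12-week ovaries the beta subunit gene of ATP synthase, Atp5b, had a mean of 571 CPM per kb, the subunit c gene Atp5g3 had 542, the complex IV gene Cox4i1 had 494 and the complex III gene Uqcrq had 408. E18.5 ovaries were led by Atp5e at 436 CPM per kb, followed by Atp5b at 393 and Cox4i1 at 345. In PGCs Atp5b reached 3170 CPM per kb, Cox4i1 1210 and the complex III gene Uqcrb 882. In cumulus cells Cox4i1 had the highest mean, 1450 CPM per kb, ahead of Atp5b at 1150. That mean joins library sets between which Cox4i1 differed widely, as given below, so the order need not hold within each set.

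Oocytes spread their subunit transcripts more unevenly than any of the ovary or PGC groups. Across the 39 members used for this description, the ratio of the 90th to the 10th percentile of CPM per kb was between 7.19 and 8.75 in ovaries and PGCs of either conception, 14.9 and 19.0 in Natural and IVF cumulus cells, and between 28.0 and 42.7 in oocytes. In Natural 12-week oocytes Atp5b stood at 237 CPM per kb, Cox8a at 112, Uqcrc2 at 91.9, Sdha at 77.2, Cox5a at 69.0 and Cox6b2 at 62.6. Their partners in the same enzymes were far lower. Within complex II, whose subunits are assembled in equal number, the flavoprotein gene Sdha had 77.2 CPM per kb, while the iron-sulfur gene Sdhb had 1.70 and the membrane anchor genes Sdhc and Sdhd had 3.52 and 10.8. In Natural 12-week ovaries these genes lay closer together, with Sdha at 91.2 CPM per kb, Sdhb at 70.4, Sdhc at 38.7 and Sdhd at 89.5. Within complex III, the core gene Uqcrc2 had 91.9 CPM per kb in Natural 12-week oocytes, while its partner Uqcrc1 had 1.94 and the cytochrome c1 gene Cyc1 had 1.84. The libraries of ovaries and of low-input cells were made with different kits, so levels across tables are a description.

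**Figure D1:**
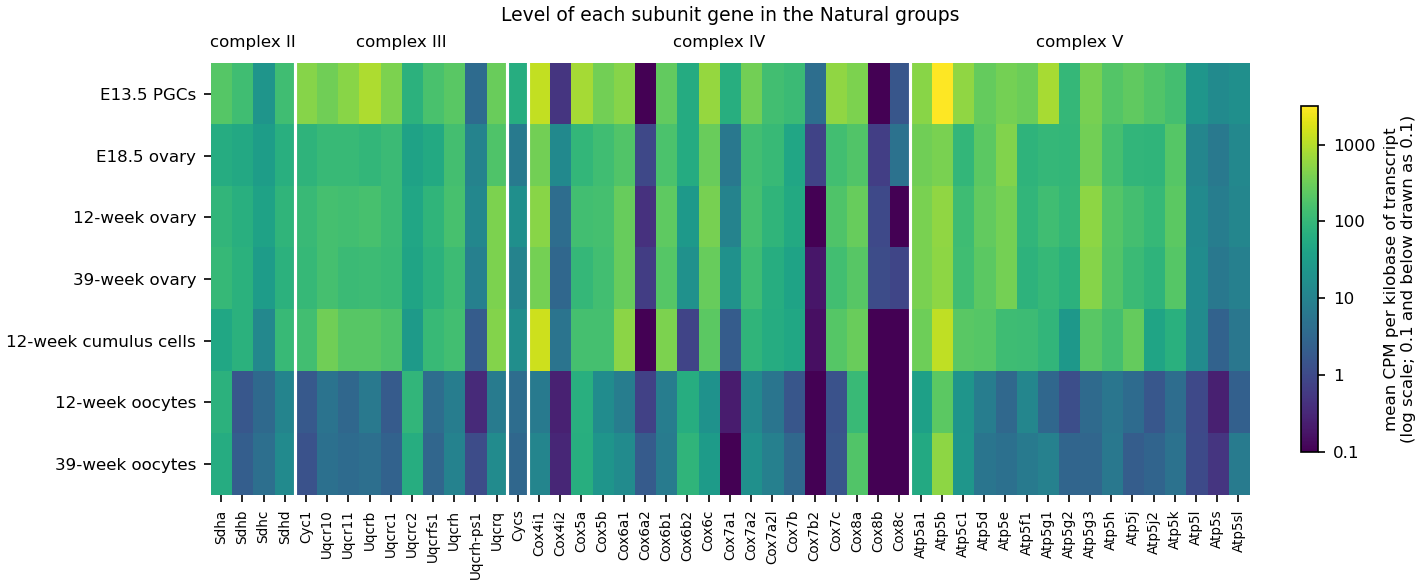
Mean level of 49 subunit genes in the Natural group of each tissue and age, as CPM per kilobase of transcript on a logarithmic colour scale, with genes grouped by complex. In oocytes a few genes such as Atp5b (237 CPM per kb at 12 weeks) stand well above neighbours in the same complex, whereas the ovary rows are more even.

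Isoform use also followed tissue. Cox6b2, a paralog of Cox6b1 best known from testis, made up 88.5% of Cox6b transcripts per kilobase in Natural and 87.5% in IVF 12-week oocytes, and 90.8% and 86.2% at 39 weeks. It made up 0.22% and 0.283% in Natural and IVF cumulus cells and 9.84% and 8.63% in 12-week ovaries. PGCs used the subunit c gene Atp5g1 for 61.9% (Natural) and 60.0% (IVF) of Atp5g transcripts per kilobase, against 18.2% and 16.9% in E18.5 ovaries; Atp5g1, Atp5g2 and Atp5g3 encode the same mature protein. The muscle isoform Cox7a1 made up 16.1% of Cox7a1 and Cox7a2 transcripts per kilobase in Natural PGCs. Cox6a2, the paralog of Cox6a1 known from heart and skeletal muscle, made up 8.92% of Cox6a transcripts per kilobase in Natural and 4.71% in IVF 12-week oocytes. At 39 weeks its mean share was 14.5% in Natural and 14.0% in IVF oocytes, with single oocytes from 1.43% to 42.4% and from 0% to 43.5%. Cox8b, known from heart and skeletal muscle, and the testis isoforms Cox7b2 and Cox8c were each under the count filter in 6 of the 7 tables, and no group reached a mean of 3 CPM for any of them.

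At E18.5, most nuclear subunits of all 4 complexes were lower in IVF ovaries. Of the 48 members that passed the count filter (all but Cox7b2 and Cox8b), 45 had a negative and 3 a positive log2 fold change, and 20 were called lower, against 2.75% of all 16415 genes tested. None was called higher, against 2.67% of all genes, and no member was higher at an unadjusted p below 0.05 or by DESeq2, which called 5.68% of all genes higher. The median log2 fold change was -0.49 over the members and 0 over all genes tested. In 19 members every IVF ovary lay below every Natural ovary, a pattern found in 4.33% of all genes; the opposite pattern was found in no member and in 4.28% of all genes. Summed over all members, Natural ovaries had 4963, 5739, 5501 and 6183 CPM (5600 ± 508, SD, n = 4) and IVF ovaries 4409, 4173, 4208, 4093, 4356 and 4365 CPM (4270 ± 127, SD, n = 6). The groups did not overlap, and the Natural ovaries were the more variable.

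**Figure D2:**
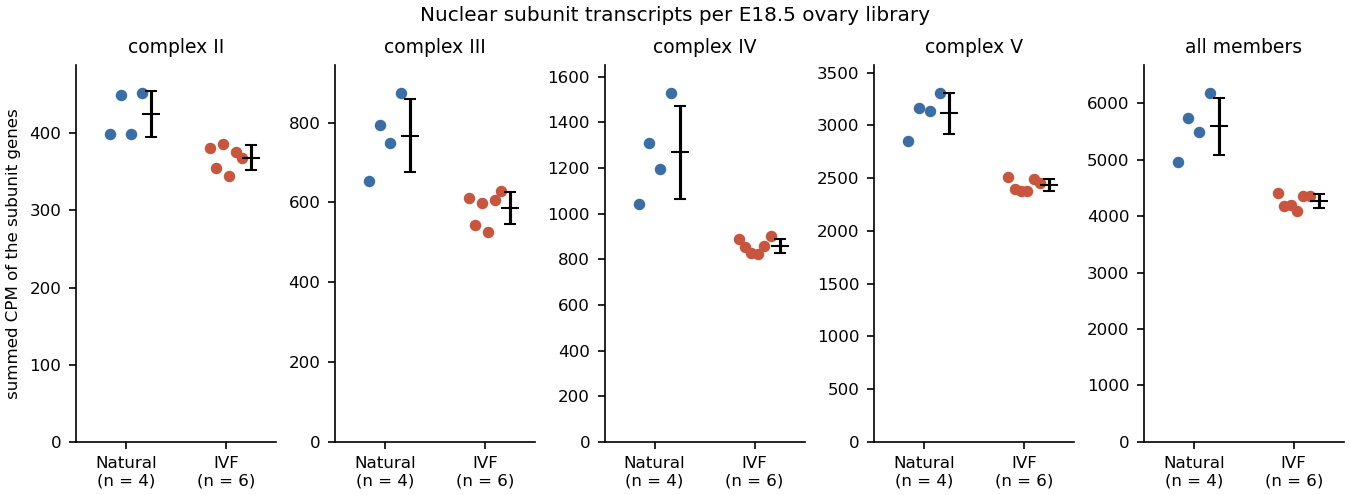
Summed CPM of the subunit genes of complexes II, III, IV and V and of all members in each E18.5 ovary library; points are libraries, the mark beside them is the mean with its SD, and axes start at 0. In each panel the 6 IVF ovaries lie below the 4 Natural ovaries, with means of 4270 and 5600 CPM over all members.

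By complex, summed CPM was 425 ± 29.9 (SD, n = 4) in Natural and 368 ± 16.1 (SD, n = 6) in IVF ovaries for complex II, 767 ± 91.9 and 586 ± 41.0 for complex III, 1270 ± 204 and 859 ± 31.8 for complex IV, and 3110 ± 192 and 2430 ± 57.7 for complex V. Natural ovary 4 was the highest and Natural ovary 1 the lowest of the Natural ovaries in each complex, and in each complex the IVF ovaries lay below all Natural ovaries. The called members were 1 of 4 in complex II, 2 of 10 in complex III, 0 of 1 for cytochrome c (0 at an unadjusted p below 0.05), 9 of 16 in complex IV and 8 of 17 in complex V. The median log2 fold changes were -0.28 for complex II, -0.43 for complex III, -0.55 for complex IV and -0.44 for complex V.

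In complex II the difference was uneven among the subunits. Sdhc, which anchors the enzyme in the membrane and helps bind ubiquinone, had 86.7, 104, 96.3 and 118 CPM in Natural ovaries and from 56.2 to 79.6 CPM (median 70.9) in IVF ovaries. The groups did not overlap, and Sdhc fell by 0.54 on the log2 scale (SE 0.12, adjusted p = 0.0271). Its partner anchor Sdhd had 80.7, 94.1, 84.1 and 82.7 CPM in Natural and from 53.8 to 72.6 CPM (median 67.1) in IVF ovaries. Those groups did not overlap either, but Sdhd missed the threshold (log2 fold change -0.38, SE 0.10, adjusted p = 0.0537). The catalytic subunit gene Sdha had 191.5, 186.6, 165.9 and 173.5 CPM in Natural and from 160.8 to 218.5 CPM in IVF ovaries, with a log2 fold change of 0.01 (SE 0.10, adjusted p = 0.968). Sdhb, which carries the iron-sulfur clusters, likewise overlapped between the groups (log2 fold change -0.18, SE 0.16, adjusted p = 0.529).

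In complex III both called members encode small subunits without a redox centre. Uqcr10 had 35.4, 44.6, 53.0 and 55.0 CPM in Natural and from 26.4 to 30.7 CPM (median 29.7) in IVF ovaries, without overlap (log2 fold change -0.70, SE 0.13, adjusted p = 0.0143). Uqcrq had 58.0, 73.5, 69.9 and 95.1 CPM in Natural and from 36.4 to 58.9 CPM (median 47.3) in IVF ovaries, of which 5 of 6 lay below every Natural ovary (log2 fold change -0.68, SE 0.16, adjusted p = 0.0280). The redox subunits did not pass the test. Cyc1, which carries the heme of cytochrome c1, had a log2 fold change of -0.30 (SE 0.11, adjusted p = 0.110), and Uqcrfs1, the Rieske iron-sulfur protein, named here to account for the list, had -0.34 (SE 0.11, adjusted p = 0.0839) with all 6 IVF ovaries below every Natural ovary. Cycs, the mobile carrier cytochrome c, had means of 22.2 CPM in Natural ovaries, against 19.7 CPM in IVF ovaries (log2 fold change -0.17, SE 0.14, adjusted p = 0.473).

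Complex IV held the most called members. Cox4i1, the regulatory subunit found in most tissues, had 213, 259, 244 and 310 CPM in Natural and from 161 to 194 CPM (median 181) in IVF ovaries, without overlap, and fell by 0.54 on the log2 scale (SE 0.11, adjusted p = 0.0196). Its paralog Cox4i2, an isoform known to respond to oxygen and to be expressed in lung and perivascular cells, showed the largest change of all members. It had 7.99, 10.1, 7.08 and 15.4 CPM in Natural and from 1.58 to 5.08 CPM (median 3.22) in IVF ovaries, with all 6 IVF ovaries below every Natural ovary, and fell by 1.60 on the log2 scale (SE 0.34, adjusted p = 0.0218). Cox4i2 accordingly made up 3.81% ± 0.804 (SD, n = 4) of Cox4i transcripts per kilobase in Natural ovaries and 1.88% ± 0.779 (SD, n = 6) in IVF ovaries, with ranges of 2.89% to 4.85% and 0.879% to 2.61%. Among the small subunits, Cox6c had 126, 162.5, 135 and 178 CPM in Natural and from 60.0 to 107 CPM (median 94.0) in IVF ovaries (log2 fold change -0.72, SE 0.15, adjusted p = 0.0214). Cox6b1, which faces cytochrome c, fell from a mean of 103 to 71.0 CPM (log2 fold change -0.54, SE 0.11, adjusted p = 0.0168). Cox7a2 had 76.6, 88.7, 79.2 and 113 CPM in Natural and from 54.6 to 62.5 CPM in IVF ovaries, without overlap (log2 fold change -0.60, SE 0.12, adjusted p = 0.0157). Cox8a, the smallest subunit, fell from a mean of 106 to 70.6 CPM (log2 fold change -0.59, SE 0.12, adjusted p = 0.0158).

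The remaining called members of complex IV were Cox6a1 (means of 107 and 71.1 CPM, log2 fold change -0.59), Cox5b (-0.49) and Cox7a2l (116 and 84.1 CPM, -0.46), with adjusted p between 0.0354 and 0.0473; Cox7a2l encodes a factor that joins complexes III and IV into supercomplexes. The tissue-restricted isoforms other than Cox4i2 were not called. Cox6b2 had 17.2, 25.1, 24.0 and 44.8 CPM in Natural and from 14.9 to 21.2 CPM in IVF ovaries, which overlapped with Natural ovary 1 (log2 fold change -0.63, SE 0.22, adjusted p = 0.108). Cox8c stayed at or below 3.63 CPM in every ovary (log2 fold change -1.29, SE 0.59, adjusted p = 0.204). Cox6a2, the muscle isoform of Cox6a1, had means of 0.632 and 1.43 CPM with individual IVF ovaries between 0 and 3.74 CPM (log2 fold change 1.17, SE 0.89, adjusted p = 0.450), and Cox7a1 had a log2 fold change of -0.38 (SE 0.35, adjusted p = 0.533). Cox7b had a log2 fold change of -0.53 (adjusted p = 0.0936).

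Complex V showed called members in its F1 head, its stalk and its membrane ring. Atp5e, the epsilon subunit of the central stalk, had 137, 193, 177 and 227 CPM in Natural and from 101 to 143 CPM (median 114) in IVF ovaries, with 5 of 6 below every Natural ovary (log2 fold change -0.64, SE 0.14, adjusted p = 0.0213). Atp5a1, the alpha subunit of the F1 head, had 837.4, 837.4, 856.7 and 837.5 CPM in Natural and from 664 to 714 CPM in IVF ovaries (log2 fold change -0.30, SE 0.08, adjusted p = 0.0446). Its partner Atp5b, the beta subunit with the catalytic sites, had means of 753 and 631 CPM and did not pass the test, although all 6 IVF ovaries lay below every Natural ovary (log2 fold change -0.26, SE 0.08, adjusted p = 0.0818). Both changes were smaller than the median of complex V. Of the genes for the c ring, Atp5g2 had 38.3, 46.4, 42.4 and 44.6 CPM in Natural and from 24.1 to 35.0 CPM in IVF ovaries (log2 fold change -0.52, SE 0.12, adjusted p = 0.0299), Atp5g1 fell from a mean of 58.8 to 40.0 CPM (-0.56, adjusted p = 0.0370), and Atp5g3 was not called (-0.39, SE 0.12, adjusted p = 0.0730). Atp5k, a membrane subunit at the dimer interface, had 61.3, 86.2, 75.7 and 87.7 CPM in Natural and from 41.5 to 60.9 CPM in IVF ovaries (log2 fold change -0.55, SE 0.13, adjusted p = 0.0327). The other called members were Atp5o (log2 fold change -0.54), Atp5d (-0.44) and Atp5c1 (-0.36), with adjusted p between 0.0333 and 0.0437. Atp5s had a log2 fold change of 0.00 and Atp5sl of -0.12, neither called.

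The number of called members at E18.5 depended on which ovary was left out. It was 32 without Natural ovary 1, 4 without Natural ovary 2, 11 without Natural ovary 3 and 4 without Natural ovary 4, and 9, 10, 9, 12 and 10 without IVF ovary 1, 2, 4, 5 or 6, and 23 without IVF ovary 3. The count of all genes called lower moved in the same fits: it was 452 with every ovary, 917, 152, 299 and 217 without Natural ovary 1, 2, 3 or 4, and 260, 187, 635, 208, 252 and 210 without IVF ovary 1 to 6. The 4 members still called without Natural ovary 2, and also without Natural ovary 4, were Cox6b1, Cox7a2, Cox8a and Uqcr10. All 20 called members kept a negative log2 fold change in each of these fits, and the median over the members stayed between -0.57 and -0.39.

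Other transcripts moved with the subunits at E18.5. All 7 erythroid markers tested were higher in IVF ovaries, 3 of them called (Alas2, Hbb-bs and Slc4a1), and their summed CPM was 604 to 1600 in Natural and 1620 to 4640 in IVF ovaries. All 14 oocyte markers were lower, 5 of them called (Gdf9, Zp1, Zp3, Padi6 and Ooep), with sums of 322 to 1200 and 87.6 to 439 CPM, while 8 granulosa markers, 6 of them tested, summed to 250 to 465 and 291 to 415 CPM with none called (0 at an unadjusted p below 0.05). Of 7 germ cell markers tested, 4 were higher and 3 lower, with 1 called lower. Germ cell markers summed to 261 to 809 CPM in Natural and 222 to 612 CPM in IVF ovaries, which overlapped. The paper counted germ cells in stained E18.5 ovaries and reported no difference between the groups. All 5 endothelial markers were lower, with Pecam1 called (log2 fold change -0.45, adjusted p = 0.0333), and summed to 346 to 519 CPM in Natural and 335 to 402 CPM in IVF ovaries. Of 5 luteal markers 4 were higher and 2 called (Star and Lhcgr), with sums of 33.9 to 59.7 and 40.5 to 61.2 CPM, and the 4 striated muscle markers tested were higher with none called (1 at an unadjusted p below 0.05), with sums of 28.1 to 174 and 7.96 to 281 CPM. Of 86 cytosolic ribosomal protein genes, 84 were lower and 59 called (median log2 fold change -0.53), and of 76 mitochondrial ribosomal protein genes 72 were lower and 4 called (median -0.34). The RNAs Rmrp, Rpph1 and Rn7sk, made by RNA polymerase III, were all called lower, with sums of 14.7 to 486 CPM in Natural and 2.17 to 7.71 CPM in IVF ovaries. Transcript length moved with the difference as well. The median transcript length was 680 bases for the members and 2778 bases for all genes tested, and genes outside the rule had median log2 fold changes of -0.28 for transcripts under 750 bases, -0.23 from 750 to under 1500, -0.08 from 1500 to under 3000 and 0.12 from 3000 bases. The shares of these other genes called lower were 13.0%, 6.91%, 2.43% and 0.627% from the shortest to the longest class. The members in these length classes had medians of -0.56 (26 genes), -0.44 (11), -0.25 (8) and -0.36 (2). The part of these cell types, RNA classes and lengths in the subunit result was not tested.

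Genes that work with the subunits were examined as well. Of the 7 further complex IV and V subunit or partner genes tested, all 7 were lower and 3 were called: Higd2a, a complex IV partner, with means of 44.4 and 30.3 CPM (log2 fold change -0.55, adjusted p = 0.0280), Higd1a with 33.8 and 25.0 CPM (-0.44, adjusted p = 0.0476), and 2010107E04Rik with 53.2 and 37.7 CPM (-0.50, adjusted p = 0.0314). Of 35 assembly factors for complexes II to V tested, 29 were lower, and none was called (median log2 fold change -0.26). At an unadjusted p below 0.05, 12 of them were lower, against 12.3% of all genes. Of 10 regulators of respiratory genes, among them Nrf1, Gabpa and Ppargc1a, 7 were higher, and none was called (median 0.19). Of these regulators 2 were higher at an unadjusted p below 0.05, against 11.9% of all genes. The mitochondrially encoded partners COX1 and CYTB had log2 fold changes of 0.07 (adjusted p = 0.878) and -0.12 (adjusted p = 0.821), with means of 3910 and 4090 CPM for COX1 and 2090 and 1920 CPM for CYTB.

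The promoters of the subunit genes are shown because 2 motifs known from respiratory genes were frequent in them. RefSeq promoter windows from 250 bases before to 50 bases after the transcript start, on mouse build GRCm38.p6, were matched for 35 members. Members were counted once per gene, with a motif in any window of the gene, and the background once per window. The percentages are therefore not of the same unit where a gene has more than 1 window. The NRF1 motif (GCGCA, any base, then GCGC), on either strand, was present in 10 of the 35 members (28.6%) and in 4.6% of all 32851 windows of the same length, and the ETS motif CCGGAAG in 12 (34.3%) and 8.86%. At least 1 of these was present in 18 members (51.4%) and in 12.6% of all windows. The NRF1 motif was held by 5 of 14 members called at E18.5 and by 5 of the 21 other members, and the ETS motif by 5 of 14 and 7 of 21. In the sequences that follow, written 5′ to 3′ on the strand of the gene, capitals mark the NRF1 motif. The first 4 belong to members called lower at E18.5, and the last 2 to the complex II genes Sdha and Sdhd, which were not called.
Atp5c1 (chr2:10080430-10080459, minus strand): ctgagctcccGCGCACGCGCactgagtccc
Atp5g2 (chr15:102671070-102671099, minus strand): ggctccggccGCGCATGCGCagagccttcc
Atp5k (chr5:108434430-108434459, minus strand): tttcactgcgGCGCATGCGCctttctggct
Atp5o (chr16:91931602-91931631, minus strand): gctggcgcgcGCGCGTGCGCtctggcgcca
Sdha (chr13:74350231-74350260, minus strand): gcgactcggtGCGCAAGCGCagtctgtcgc
Sdhd (chr9:50603909-50603938, minus strand): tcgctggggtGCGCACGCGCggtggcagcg

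The ETS motif is shown in capitals for called members of complex IV, Cox6b1 and Cox8a, for Atp5k, which holds both motifs, and for Sdhb, which was not called. In each the motif lies within 30 bases of the transcript start.
Cox6b1 (chr7:30626124-30626153, minus strand): tcctctcgcagCTTCCGGccagtcggaatt
Cox8a (chr19:7217603-7217632, minus strand): tttccgaaataCTTCCGGctcgggcgtccg
Atp5k (chr5:108434369-108434398, minus strand): cctcagttgagCTTCCGGcgcgaaggtcac
Sdhb (chr4:140961266-140961295, plus strand): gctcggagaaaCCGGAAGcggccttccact
The called complex IV gene Cox6a1 carried the NRF1 motif in 2 places upstream of its start (chr5:115348982-115349129, minus strand).
Cox6a1: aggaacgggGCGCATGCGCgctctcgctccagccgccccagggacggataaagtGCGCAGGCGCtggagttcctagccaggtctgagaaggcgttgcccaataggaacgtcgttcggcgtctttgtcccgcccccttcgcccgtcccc
These matches describe the letters of the windows and not the binding of a factor. Other motifs differed less from the background: CCAAT was in 57.1% of members and 37.4% of all windows, the GC box GGGCGGG in 28.6% and 25.6%, and TATAAA in 8.57% and 13.6%.

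At 12 weeks no subunit gene passed the test. Of 46 members tested (all but Cox6a2, Cox7b2, Cox8b and Cox8c), 21 were higher and 25 lower, and edgeR called none, against 0% of all 17628 genes called higher and 0.00567% called lower. At an unadjusted p below 0.05, 1 member was lower (8.22% of all genes) and 0 were higher (6.21%), and DESeq2 called that 1 member, against 1.04% of all genes higher and 2.68% lower. The median log2 fold change was 0.00 over the members and 0.01 over all genes. Summed over all members, Natural ovaries had 6932, 7686, 6160 and 7771 CPM (7140 ± 753, SD, n = 4) and IVF ovaries 7456, 6094, 7294, 7578 and 7627 CPM (7210 ± 637, SD, n = 5), with full overlap.

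The 1 member below that unadjusted p at 12 weeks was Atp5g1, a gene for subunit c of ATP synthase. It had 77.6, 86.5, 74.4 and 78.4 CPM in Natural ovaries, against 65.6, 59.9, 64.8, 63.6 and 66.0 CPM in IVF ovaries, and all 5 IVF ovaries lay below every Natural ovary. Its log2 fold change was -0.31 (SE 0.07, adjusted p = 0.152 by edgeR), and DESeq2 gave -0.32 with an adjusted p of 0.00376. No other member's IVF ovaries all lay below the Natural ones, a pattern seen in 3.64% of all genes. The largest differences in the other complexes were small against their errors: Sdhc in complex II (log2 fold change -0.09, SE 0.11), Uqcrc2 in complex III (0.16, SE 0.10) and Cox6b2 in complex IV (-0.27, SE 0.29), with adjusted p from 0.454 to 0.725. Cox4i2, the gene with the largest change at E18.5, had 3.70, 3.43, 2.31 and 2.23 CPM in Natural and from 2.46 to 3.38 CPM in IVF ovaries (log2 fold change 0.09, SE 0.25, adjusted p = 0.903). At this age 8 oviduct epithelium markers summed to 3600 to 8070 CPM in Natural and 100 to 3180 CPM in IVF ovaries, all 8 lower and none called (6 at an unadjusted p below 0.05), and 8 granulosa markers to 1520 to 2130 and 1950 to 4260 CPM. Their part in the Atp5g1 values was not tested.

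At 39 weeks the direction was mixed, and some members were higher in IVF ovaries without passing the test. Of 48 members tested (all but Cox7b2 and Cox8c), 26 were higher and 22 lower, and edgeR called none, against 0.0582% of all 17186 genes called higher and 0.204% called lower. At an unadjusted p below 0.05, 9 members were higher and 2 lower, against 10.4% and 8.87% of all genes, and DESeq2 called 3 higher and 1 lower, against 3.39% and 3.76%. The median log2 fold change was 0.03 both over the members and over all genes tested. Summed CPM was 7504, 6081, 7098, 5644 and 6037 (6470 ± 788, SD, n = 5) in Natural and 7340, 7252, 7218, 6871 and 6773 (7090 ± 252, SD, n = 5) in IVF ovaries, which overlapped. Complex V summed to 3170 to 4040 CPM in Natural and 4020 to 4270 CPM in IVF ovaries.

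The 3 members with the smallest p at 39 weeks each separated the ovaries completely. The supercomplex factor gene Cox7a2l had 69.8, 61.6, 82.7, 65.7 and 59.7 CPM in Natural ovaries, against 97.9, 105.6, 83.6, 108.5 and 88.8 CPM in IVF ovaries (log2 fold change 0.51, SE 0.11, adjusted p = 0.0761). Cytochrome c itself, Cycs, had 34.7, 32.0, 30.8, 31.5 and 30.1 CPM in Natural ovaries, against 36.6, 46.2, 46.4, 36.1 and 44.2 CPM in IVF ovaries (log2 fold change 0.40, SE 0.10, adjusted p = 0.0954). Cox6b2 had 7.25, 7.11, 9.12, 10.8 and 9.77 CPM in Natural ovaries, against 6.75, 5.39, 5.78, 5.38 and 5.74 CPM in IVF ovaries (log2 fold change -0.60, SE 0.17, adjusted p = 0.121). Every IVF ovary was above every Natural ovary for Cox7a2l and Cycs and below for Cox6b2; such separation occurred upwards in 2.27% and downwards in 2.85% of all genes. DESeq2 gave adjusted p of 0.00218 for Cox7a2l, 0.00592 for Cycs and 0.00795 for Cox6b2, with log2 fold changes of 0.52, 0.40 and -0.61.

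Other members at 39 weeks had larger spreads. Cox4i2 had 1.96, 1.27, 4.41, 1.84 and 2.32 CPM in Natural ovaries, against 4.27, 4.61, 4.05, 3.61 and 3.34 CPM in IVF ovaries (log2 fold change 0.76, SE 0.31, adjusted p = 0.231), with only Natural ovary 3 inside the IVF range. Atp5g3 had from 272 to 427 CPM in Natural and from 320 to 735 CPM in IVF ovaries (log2 fold change 0.50, SE 0.22, adjusted p = 0.247). The muscle isoforms Cox7a1 and Cox6a2 had log2 fold changes of -0.80 (SE 0.45, adjusted p = 0.341) and -0.90 (SE 0.47, adjusted p = 0.319). In the 39-week ovaries 82 of 83 cytosolic ribosomal protein genes were higher in IVF, 72 at an unadjusted p below 0.05 and none called, with sums of 27100 to 38900 CPM in Natural and 37500 to 51200 CPM in IVF. Luteal markers summed to 17800 to 29200 CPM in Natural and 10200 to 22000 CPM in IVF, and granulosa markers to 818 to 2090 and 1400 to 3890 CPM. Their part in these values was not tested.

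**Figure D3:**
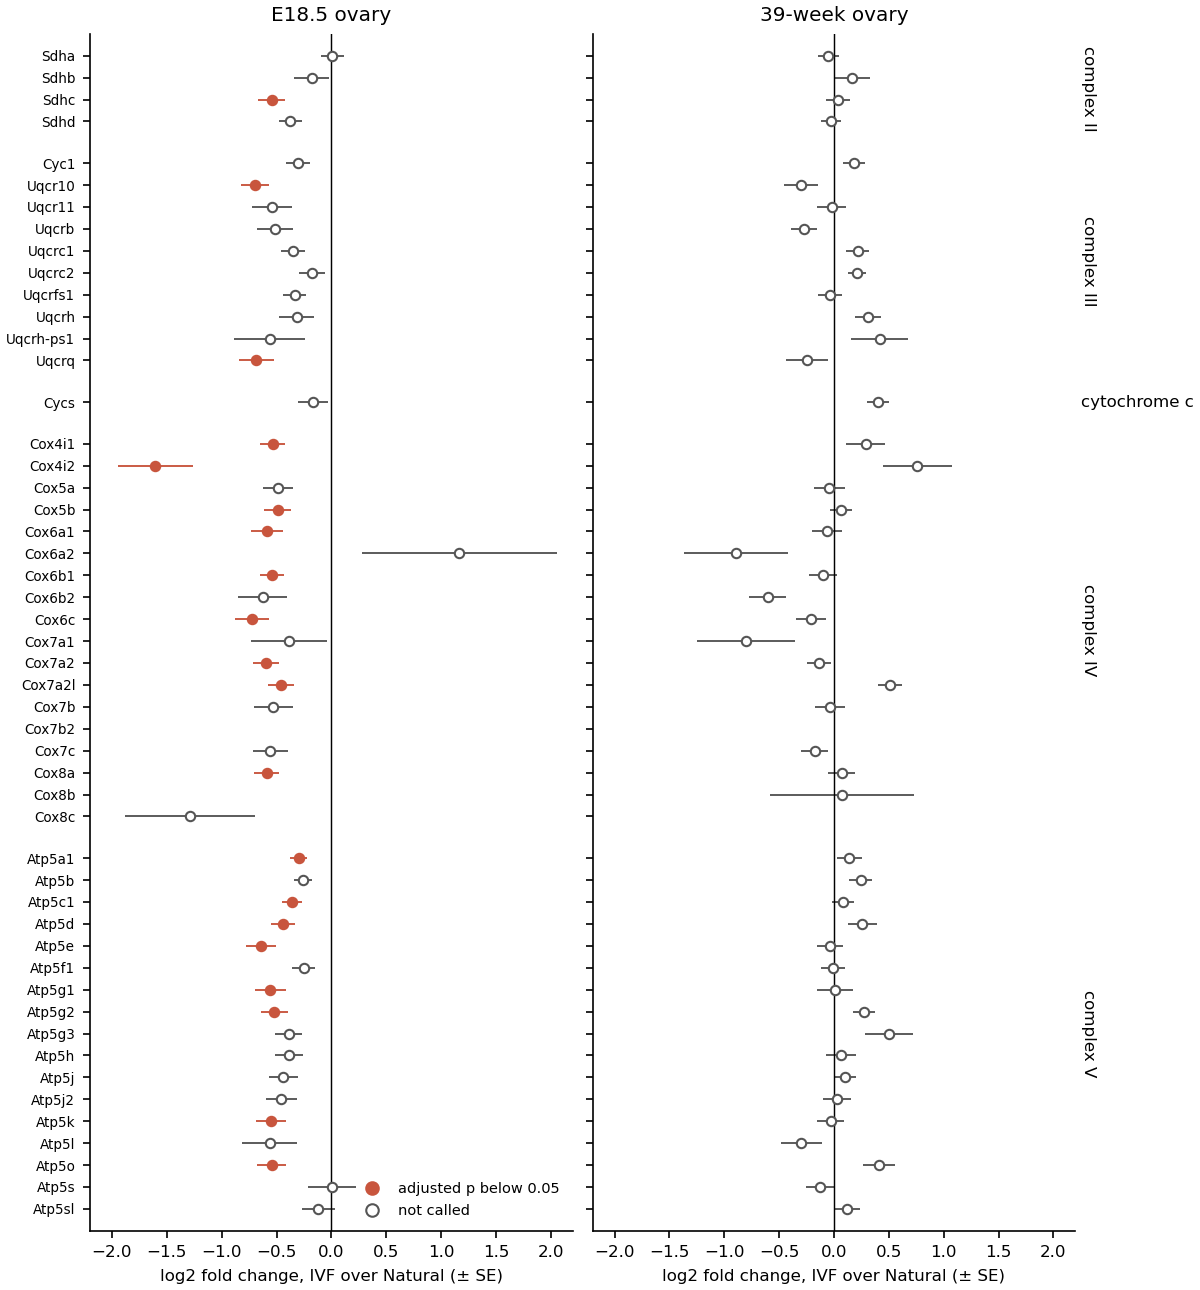
Log2 fold change of IVF over Natural for each subunit gene in E18.5 ovaries and in 39-week ovaries, with bars of 1 SE; filled red points passed an adjusted p of 0.05. At E18.5 45 of 48 points lie below 0 and 20 are filled, and at 39 weeks 26 of 48 lie above 0 and none is filled.

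Because a call at E18.5 and none later does not show that the ages differ, the difference itself was tested in a joint fit of the 3 ovary tables. The difference of the IVF effect at 39 weeks minus that at E18.5 was above 0 for 43 of 50 members and called above 0 for 21, against 5.1% of all 19724 genes called above and 2.85% below. None was called below 0. The median difference was 0.48 over the members and 0.07 over all genes. The members with the smallest adjusted p were Cox7a2l (difference 0.99 on the log2 scale, SE 0.17, adjusted p = 0.000974), Atp5g2 (0.81, SE 0.14, adjusted p = 0.00102) and Cox4i2 (2.38, SE 0.44, adjusted p = 0.00154). They were followed by Atp5o (0.96), Atp5b (0.52), Atp5d (0.71), Cox4i1 (0.83) and Uqcrc1 (0.58), with adjusted p from 0.0016 to 0.00781. The called members came from complexes II (Sdhc), III, IV and V and included Cycs (0.59).

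For 12 weeks minus E18.5 the difference was above 0 for 45 of 50 members with a median of 0.43, and 31 had an unadjusted p below 0.05, but edgeR called none, against 0.274% of all genes called above 0 and 0.0406% below. For 39 weeks minus 12 weeks it was above 0 for 25 members with a median of 0.01, and 6 had an unadjusted p below 0.05, with none called by edgeR, against 1.96% and 0.75% of all genes called above and below 0. The shares of all genes given for these 2 contrasts are at an adjusted p. The share at an unadjusted p was not taken, so the counts of 31 and 6 members have no background beside them. The count of 21 fell to 9 without Natural 39-week ovary 5 and to 13 without Natural 12-week ovary 4, and the count for 12 weeks minus E18.5 rose to at most 4 when a single ovary was left out. The count over all genes was not taken in these fits, so these shifts have no background beside them. Age and table cannot be told apart in these differences, since each age was deposited as its own table.

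In PGCs, the subunit genes varied more between libraries than between groups. Of 46 members tested (all but Cox4i2, Cox6a2, Cox8b and Cox8c), 36 were lower, as were 55.7% of all 12763 genes, and 10 higher. EdgeR and DESeq2 called none, as both called 0% of all genes in either direction, and 0 members had an unadjusted p below 0.05, against 1.44% of all genes for higher and 1.29% for lower. The median log2 fold change was -0.09 over the members and -0.04 over all genes. Summed CPM was 29390, 10100, 18310 and 14980 in Natural (18200 ± 8190, SD, n = 4) and 24640, 10430, 13200, 25050 and 14740 in IVF libraries (17600 ± 6780, SD, n = 5). Atp5b alone supplied much of this spread, with 11210, 1784, 6385 and 4915 CPM in Natural and 9082, 2419, 3554, 10050 and 4554 CPM in IVF libraries (log2 fold change -0.03, SE 0.61). Cox4i1 had 1405, 745.8, 740.9 and 710.5 CPM in Natural and from 648.3 to 1187 CPM in IVF libraries (log2 fold change -0.02, SE 0.32), and Atp5g1 had means of 493 and 481 CPM. The muscle isoform Cox7a1 had means of 26.2 and 25.8 CPM. A difference smaller than these errors was not detectable with these libraries.

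In 12-week oocytes, counts were summed over the oocytes of each set, read from the first 2 fields of the library name and taken as a donor, which the labels do not name, giving 5 Natural and 5 IVF sets. Of 44 members tested (without Cox4i2, Cox7a1, Cox7b2, Cox8b, Cox8c and Uqcrh-ps1), 29 were higher and 15 lower, and edgeR called none, against 0.0208% of all 14444 genes called higher and 0.00692% lower; 2 members were higher (3.95% of all genes) and 0 lower (2.72%) at an unadjusted p below 0.05, and DESeq2 called 0, against 0.187% of all genes higher and 0.132% lower. With sets merged by the first field alone, 2 against 2, edgeR called 0 of 46 members and 5 of 17378 genes, all higher, and the median over the members was 0.10. In no member did the sets of the groups separate completely, against 0.845% of all genes with every IVF set above and 0.547% with every IVF set below. The median log2 fold change was 0.12 over the members and 0.02 over all genes. Summed over members, Natural sets had 1266, 1275, 1250, 1354 and 1224 CPM (1270 ± 49.0, SD, n = 5) and IVF sets 1141, 1446, 1049, 1368 and 1241 CPM (1250 ± 162, SD, n = 5).

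The 2 members in question belong to complex IV. Cox6a1 had 5.54, 3.17, 4.97, 4.18 and 4.75 CPM in Natural and 4.13, 8.65, 8.95, 8.03 and 6.36 CPM in IVF sets (log2 fold change 0.68, SE 0.25, adjusted p = 0.699), and 4 of 5 IVF sets lay above every Natural set. Cox7a2 had 7.74, 8.89, 8.62, 7.16 and 8.84 CPM in Natural and 8.62, 13.0, 10.3, 10.6 and 11.2 CPM in IVF sets (log2 fold change 0.38, SE 0.17, adjusted p = 0.745). The abundant subunits overlapped between the groups. Sdha had from 193.2 to 246.0 CPM in Natural and from 150.2 to 218.9 CPM in IVF sets (log2 fold change -0.18, SE 0.13, adjusted p = 0.861), Atp5b had -0.10 (SE 0.14, adjusted p = 0.938), and the oocyte-preferred isoform gene Cox6b2 had 24.9, 32.6, 26.1, 34.4 and 27.5 CPM in Natural and 36.0, 33.0, 24.0, 37.4 and 31.8 CPM in IVF sets (log2 fold change 0.16). The mitochondrially encoded partners COX1 and CYTB had log2 fold changes of -0.66 (adjusted p = 0.745) and -0.61 (adjusted p = 0.707).

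**Figure D4:**
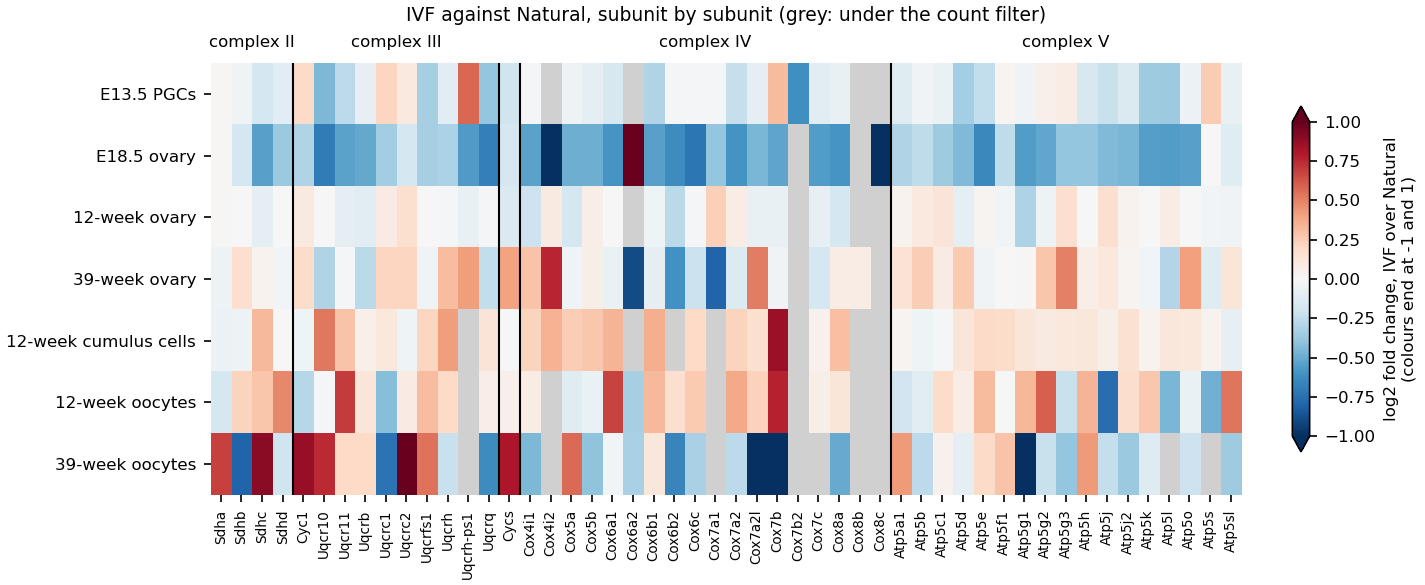
Log2 fold change of IVF over Natural for the 50 members in 7 comparisons, with colours ending at -1 and 1 and grey where a gene was under the count filter; the 39-week oocyte row comes from summed counts and has no test. The E18.5 ovary row has the median farthest from 0 (-0.49).

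For 39-week oocytes the labels name no donor, so each group counts as 1 sample and no test was made. Counts were summed over the oocytes of a group, and the Poisson intervals (95%) given here cover counting error only. Of 41 members that passed the filter, 16 were higher, as were 49.9% of all genes, and 25 lower in IVF, with a median log2 ratio of -0.21 against 0.00 over all genes. A ratio above 1.5-fold was reached upwards by 6 members, against 21.3% of the 10940 genes, and downwards by 7, against 25.4%. The 9 members under the filter were Atp5l, Atp5s, Cox4i2, Cox7a1, Cox7b2, Cox7c, Cox8b, Cox8c and Uqcrh-ps1.

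Among the higher members, Uqcrc2, a core subunit of complex III, had a summed 106.7 CPM (104.7 to 108.6) in Natural and 216.4 CPM (214.2 to 218.5) in IVF oocytes, a log2 ratio of 1.02. Across oocytes Uqcrc2 ran from 0.148 to 275 CPM (median 123) in Natural and from 119 to 337 CPM (median 204) in IVF, and the groups overlapped. Sdhc had 11.7 CPM (11.1 to 12.4) and 21.9 CPM (21.2 to 22.6), a log2 ratio of 0.90, and Cyc1 had 1.68 CPM (1.44 to 1.94) and 3.07 CPM (2.82 to 3.34), a ratio of 0.87. Cyc1 was at 0 in at least 1 oocyte of each group. Sdha had 163.4 CPM (161.0 to 165.9) and 262.2 CPM (259.8 to 264.6), with a log2 ratio of 0.68 and a median per oocyte of 196 CPM in Natural and 270 CPM in IVF.

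Among the lower members, Cox7b, a small subunit of complex IV, had a summed 3.96 CPM (3.59 to 4.35) in Natural and 0.844 CPM (0.715 to 0.991) in IVF oocytes, a log2 ratio of -2.23, with medians per oocyte of 2.27 and 0.914 CPM. Atp5g1 had 8.58 CPM (8.04 to 9.15) and 2.60 CPM (2.36 to 2.84), a log2 ratio of -1.73. Per oocyte, however, Atp5g1 had medians of 3.20 CPM in Natural and 2.67 CPM in IVF, and the highest value, 25.4 CPM, was Natural oocyte 9. Cox7a2l had 12.4 CPM (11.8 to 13.1) and 5.84 CPM (5.49 to 6.21), a log2 ratio of -1.09, and Cox6b2 had a log2 ratio of -0.66. Sdhb, the iron-sulfur subunit of complex II, had 2.14 CPM (1.87 to 2.44) and 1.23 CPM (1.07 to 1.40), a log2 ratio of -0.80, with medians per oocyte of 3.01 and 0.199 CPM.

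The Natural oocytes 6 and 9, with low oocyte markers, weighed on these ratios. Their complex III genes summed to 21.0 and 42.0 CPM, against 112 to 289 CPM in the other Natural oocytes, and their Uqcrc2 values were 13.6 and 0.148 CPM. Without them, 3 members exceeded 1.5-fold upwards and 6 downwards, against 14.6% and 17.5% of all 11574 genes, the median log2 ratio was 0.02, and the ratios were -0.38 for Atp5g1, -1.205 for Cox7b, -0.09 for Cox7a2l and 0.00 for Cox6b2. The members that were higher moved as well, to log2 ratios of 0.41 for Uqcrc2, 0.48 for Sdhc, 0.23 for Cyc1, 0.32 for Cycs and 0.41 for Sdha. By contrast the ratio of Sdhb went from -0.80 to -1.15 and that of Atp5g3 from -0.39 to -0.87. With every oocyte given equal weight, 5 members were higher and 4 lower by more than 1.5-fold, against 24.8% and 18.6% of all genes, and Cox7b had a log2 ratio of -1.29.

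**Figure D5:**
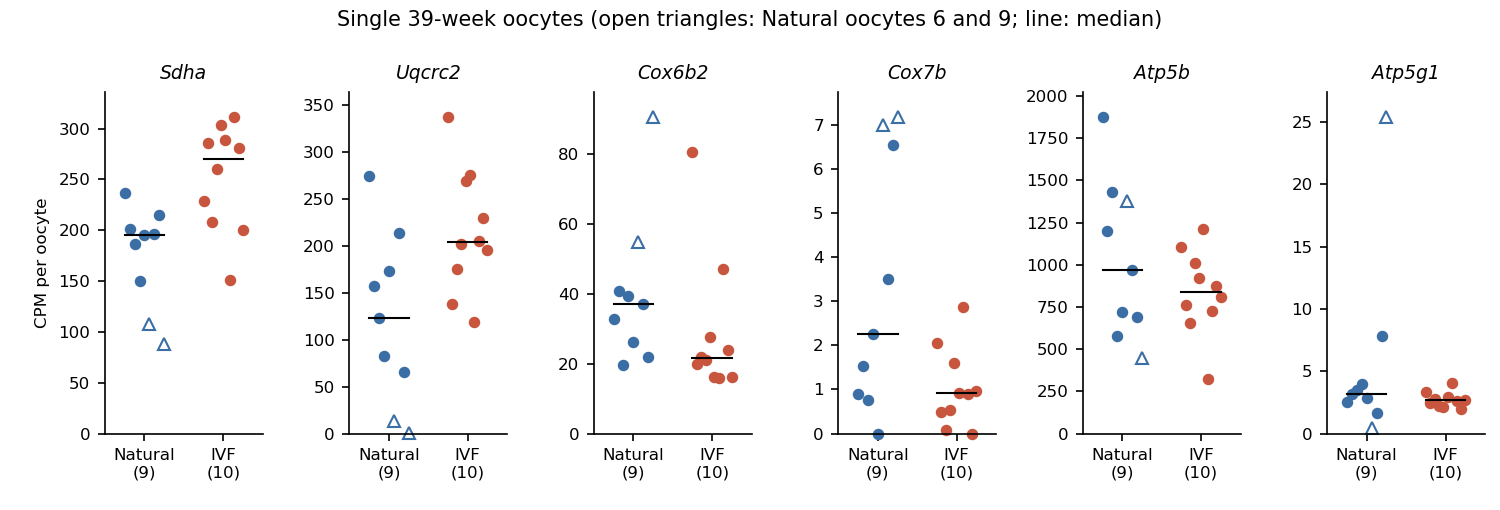
CPM of Sdha, Uqcrc2, Cox6b2, Cox7b, Atp5b and Atp5g1 in each 39-week oocyte of 9 Natural and 10 IVF oocytes; the line is the median and open triangles are Natural oocytes 6 and 9. These 2 oocytes hold the lowest Sdha and Uqcrc2 values and Natural oocyte 9 the highest Atp5g1 value, 25.4 CPM.

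In 12-week cumulus cells, complex IV genes had positive log2 fold changes without passing the test, and some genes differed between sets of libraries. Of 43 members tested (without Cox6a2, Cox6b2, Cox7a1, Cox7b2, Cox8b, Cox8c and Uqcrh-ps1), 34 were higher and 9 lower, as were 49.8% of all genes, and edgeR called none, against 0% of all 10280 genes called higher and 0.00973% lower; 4 members were higher and 0 lower at an unadjusted p below 0.05, against 3.11% and 2.97%, and DESeq2 called 1 higher, against 0.156% of all genes higher and 0.136% lower. All 12 complex IV genes tested had a positive log2 fold change, with a median of 0.26, against 0.00 over all genes. Summed over members, Natural libraries had 9322, 9669, 9278, 6855 and 8318 CPM (8690 ± 1140, SD, n = 5) and IVF libraries 7771, 8671, 7528, 11660 and 11340 CPM (9390 ± 1970, SD, n = 5).

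The gene DESeq2 called was Cox7b, with 65.9, 67.1, 40.2, 27.2 and 38.8 CPM in Natural and 90.1, 90.1, 74.0, 74.9 and 85.7 CPM in IVF libraries. All 5 IVF libraries lay above every Natural library, a pattern found in 0.399% of all genes. No member showed the opposite pattern, found in 0.36%. The Natural value of 38.8 CPM came from library 126_2_GC, whose label is in doubt. Counted as IVF, it would lie below the Natural values of 65.9, 67.1 and 40.2 CPM, and the groups would overlap. The log2 fold change of Cox7b was 0.86 (SE 0.20, adjusted p = 0.300 by edgeR), with an adjusted p of 0.0189 by DESeq2. In edgeR it was 0.0354 with the replicate number as a block and 0.00829 without a count filter. With the block 11 genes were called higher and 13 lower of 10280, and without a filter 49 and 55 of 24120. The replicate number joins libraries of different library sets, so the block has no known meaning. The other members below an unadjusted p of 0.05 were Uqcr10 (log2 fold change 0.53, adjusted p = 0.650), Uqcrh (0.42, adjusted p = 0.723) and Cox6b1 (0.37, adjusted p = 0.780).

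Cox4i1 in cumulus cells differed between the library sets. The set was read from the library names, which end in GC for Natural libraries 3 to 5 and IVF libraries 1 to 3 and do not for the others. Cox4i1 had 2049, 2281, 382.8, 323.5 and 377.5 CPM in Natural and 421.7, 464.4, 376.4, 2446 and 2591 CPM in IVF libraries, and the 4 libraries of the other set were far above the 6 of the GC set. With the set as a covariate its log2 fold change was 0.22 (SE 0.15, adjusted p = 0.875). Within the GC set no member was called and the median over members was 0.04, and within the other set, with 2 Natural and 2 IVF libraries, 5 members were called higher and the median was 0.28. Over all genes, 2.58% were called higher and 3.42% lower within the other set, and 0.0198% and 0% within the GC set. The called members there included Cox6a1 (log2 fold change 0.74, adjusted p = 0.00102), Uqcr10 (0.69, adjusted p = 0.00459), Sdhc (0.94, adjusted p = 0.0204) and Cox6b1 (0.51, adjusted p = 0.0249). Of 82 cytosolic ribosomal protein genes 79 were higher in IVF cumulus cells, 24 of them at an unadjusted p below 0.05 and none called, and their part in the subunit values was not tested.

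Across the adult and germ cell comparisons the related gene lists gave no calls. Assembly factors for complexes II to V had medians of 0.03 in 12-week ovaries (35 tested), -0.07 in 39-week ovaries (35), -0.08 in PGCs (34), 0.17 in 12-week oocytes (34) and 0.16 in cumulus cells (30). Of these, 1 was lower at an unadjusted p below 0.05 in 12-week ovaries, 3 were higher and 3 lower in 39-week ovaries, 1 was lower in PGCs, 2 were higher in 12-week oocytes and 3 were higher in cumulus cells. The shares of all genes at that p were 8.22% lower in 12-week ovaries, and 10.4% higher and 8.87% lower in 39-week ovaries. They were 1.29% lower in PGCs, 3.95% higher in 12-week oocytes and 3.11% higher in cumulus cells. The mitochondrially encoded COX1 and CYTB were both lower in 39-week ovaries (median log2 fold change -0.58 over the pair, 1 of them at an unadjusted p below 0.05 and none called), and their summed ratios in 39-week oocytes were -1.34 and -0.83 on the log2 scale.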

How the data were processed

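RNA-seq was deposited as 7 tables of gene counts. The authors deposited whole-number counts of reads per gene without normalization; per the paper, low-input reads were trimmed, aligned to mm10 with STAR and counted with featureCounts, and the submitters' processing notes name Trimmomatic (0.32), STAR (2.3.0e), featureCounts (1.5.0) and DESeq2. Ovaries were stranded mRNA-seq and the rest modified SMART-Seq. The members and lists were chosen with earlier results of these data known.

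Each table was fitted on its own with edgeR (version 4.0.16, R 4.3.3): default expression filter by group, TMM normalization, quasi-likelihood fit and test, two-sided, Benjamini-Hochberg over all genes tested, called at an adjusted p below 0.05. Counts of 12-week oocytes were summed per set read from the library names, library set was a covariate in the cumulus fit, and 39-week oocytes were summed per group with no test and a fold of 1.5 as the limit. The difference between ovary ages was tested as interaction contrasts in 1 fit. DESeq2 (version 1.42.0) and limma (version 3.58.1) served in alternatives, with other size factors, no filter, at least 10 counts in every library, each replicate left out and the replicate number as a block. Scripts were tested on simulated data. Depth sets the precision: total counts were at least 839781 per library. Lengths came from the principal transcript in GENCODE basic annotation, and promoters from RefSeq (GRCm38.p6); Atp5o had no length because its symbol marks 2 genes. Strand was not stated to be used in counting, so overlapping genes cannot be separated.

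Genes named with values were the called members, up to 12 by adjusted p, the largest change in each complex, the subunits of complex II, Cyc1, Cycs, the paralogous isoforms and the subunit c genes, for 39-week oocytes the 3 highest and 3 lowest ratios, and for the interaction up to 8; Uqcrfs1 and other further members account for the list. Values come from Python (version 3.11.15), and figures from matplotlib (version 3.10.9). Cumulus libraries at 39 weeks and 4 further 12-week cumulus records were not analysed here.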

Additional observations from a re-analysis of the deposited data

Results flagged for a closer look

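Of 378 groups of 4 to 10 samples whose subunit values were examined, 23 (6.08%) held a sample that stood apart from the others of its group, where chance gives about 1 in 20. In E18.5 ovaries IVF ovary 3 was apart for Atp5g3 (139.0 CPM against 184.6 to 206.8 in the other IVF ovaries), for Cox6c (59.99 against 89.63 to 107.2) and for Sdha (218.5 against 160.8 to 180.5). IVF ovary 2 was apart for Cox7b (49.35 CPM against 25.94 to 30.67), and Natural ovary 1 for Cyc1 (109.6 against 132.7 to 136.1).

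In 12-week ovaries IVF ovary 2 was the lowest for complex III (860.1 CPM against 1083 to 1134), complex IV (1233 against 1535 to 1642) and all members (6094 against 7294 to 7627), and Natural ovary 2 was the highest for Atp5g2 (51.73 CPM against 40.21 to 42.09). In 39-week ovaries IVF ovary 1, the library with high oviduct epithelium markers, was apart for Cox6b2 (6.746 CPM against 5.381 to 5.775) and Cox7a1 (1.462 against 4.52 to 5.571), and Natural ovary 3 for Cox8b (1.073 against 0.1065 to 0.3724).

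In PGCs Natural library 1 was the highest for complex IV (5316 CPM against 2722 to 3157), Cox4i1 (1405 against 710.5 to 745.8) and Cyc1 (1291 against 495.5 to 599.5). In 12-week oocytes IVF set 3 was apart for Atp5g1 (4.321 CPM against 1.5 to 2.197) and IVF set 2 for Atp5g3 (4.12 against 1.409 to 1.967).

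In 39-week oocytes Natural oocyte 9, which had low oocyte markers, was the highest for Atp5g1 (25.4 CPM against 0.4294 to 7.847), Cox6a2 (3.814 against 0.1392 to 1.983) and Cox6b2 (90.42 against 19.56 to 54.68). IVF oocyte 1 was the highest for complex IV (456.2 CPM against 167.6 to 284.8), Cox6b2 (80.46 against 15.82 to 47.1) and Cox8a (170.8 against 45.43 to 91.91).

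The effect of IVF differed between 39-week and E18.5 ovaries, by edgeR's interaction test at an adjusted p below 0.05, for 21 members. The differences of the log2 fold changes were 0.593 for Sdhc in complex II, 0.582 for Uqcrc1, 0.503 for Cyc1, 0.637 for Uqcrh and 0.411 for Uqcrc2 in complex III, and 0.59 for Cycs. In complex IV they were 0.991 for Cox7a2l, 2.383 for Cox4i2, 0.834 for Cox4i1, 0.675 for Cox8a and 0.563 for Cox5b. In complex V they were 0.809 for Atp5g2, 0.959 for Atp5o, 0.522 for Atp5b, 0.707 for Atp5d, 0.461 for Atp5a1, 0.563 for Atp5j, 0.916 for Atp5g3, 0.459 for Atp5c1, 0.618 for Atp5e and 0.575 for Atp5g1. The age cannot be told apart from the table in these differences.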

How the results depend on the processing

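The 20 members called lower at E18.5 became 32 with DESeq2, 21 with other size factors, 17 without a filter, 21 with at least 10 counts in every library and 4 to 32 when a replicate was left out. All 20 kept their sign in each of these. Over all genes, 452 (2.75%) were called lower in the main fit and 991 (6.04%) with DESeq2. The count was 471 with other size factors, 451 of 27890 without a filter and 480 of 13905 with at least 10 counts in every library. It was 152 to 917 when a replicate was left out. In 12-week ovaries DESeq2 called 1 member lower, and in 39-week ovaries 3 higher and 1 lower. In cumulus cells 1 member was called higher with DESeq2, without a filter or with the replicate block, and 5 within the library set whose names do not end in GC. In 39-week oocytes 3 members were above 1.5-fold without Natural oocytes 6 and 9, and 4 (equal weight) or 2 (at least 10 counts in every oocyte) were below. The shares of all genes in these settings were 14.6% above, 18.6% below and 19.4% of 5266 below. The count of interaction calls was 0 to 4 for 12 weeks minus E18.5, 0 to 1 for 39 weeks minus 12 weeks (2 with at least 10 counts in every library) and 9 to 30 for 39 weeks minus E18.5 when a replicate was left out. For these interaction fits the count over all genes was not taken. The cause of these shifts was not tested, beyond the fewer samples of a fit without a replicate.

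A change of sign in a gene not called in either fit was taken as a reversal only where it moved by more than its SE. Such reversals were Atp5g1 (0.412) and Cox7a2l (0.263) in PGCs without Natural library 1, with ranges of -0.22 to 0.412 and -0.248 to 0.263 when each library was left out, Cox7a2 (-0.003) and Sdhc (-0.064) within the GC set, and Sdha (0.110), Sdhb (0.285) and Sdhd (0.393) within the other cumulus set. The 39-week oocytes have no SE, and a change of sign counted there only for a gene past 1.5-fold. That held for Cox6b2 (0.002) without Natural oocytes 6 and 9. Genes within 1.5-fold also changed sign in that setting: Cox6a2 (-0.324 to 0.705), Cox8a (-0.503 to 0.044) and Cox4i1 (-0.447 to 0.165). Of the other values of named genes, 1996 were counted as the same, 70 (all at E18.5) lost the threshold, 23 passed it and 7 moved. In 39-week oocytes a value counted as the same where it shifted by less than the SD between oocytes, whichever side of 1.5-fold it took. Uqcrc2, for example, was counted as the same although its log2 ratio went from 1.02 to 0.407 without Natural oocytes 6 and 9.

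Same-numbered samples did not pair at E18.5, where their deviations correlated between -0.132 and 0.010. There 0 of 4 Natural ovaries correlated best with the IVF ovary of their own number. Elsewhere some numbers went together. Correlations ran from -0.357 to 0.252 at 12 weeks and from -0.006 to 0.399 at 39 weeks. They ran from -0.068 to 0.536 in PGCs and from -0.147 to 0.262 in cumulus cells. Natural samples correlated best with their own number in 1 of 4 ovaries at 12 weeks and 3 of 5 at 39 weeks. The same held for 3 of 4 PGC libraries and 2 of 5 cumulus libraries. With the replicate block E18.5 had 0 called members, with 2 genes called higher and 1 lower of all 16176, and all 20 kept their sign; cumulus cells had 1, with 11 genes higher and 13 lower of all 10280, and the counts of calls in 12-week ovaries, 39-week ovaries and PGCs were those without it. The 12-week oocyte sets share no number.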
